A study of Mus musculus with 14 samples.

Results

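Ribosomes are assembled in the nucleolus from rRNA that RNA polymerase I transcribes and from proteins made in the cytoplasm. The list of 35 genes described here was set with earlier results of these data known, so its counts and medians are descriptions. Its genes were followed by name in follistatin-treated and control mouse muscle. They were chosen by gene symbol, covering Myc and RNA polymerase I (9 genes), proteins of small nucleolar ribonucleoprotein particles, called snoRNPs (8), nucleolar proteins of several steps (4), large subunit assembly (10) and small subunit assembly (4). All 35 were found among the 24359 genes used, and all 35 passed the filter of a mean of at least 1 FPKM (fragments mapped to a gene, scaled to its transcript length and to the library's mapped fragments) in both sets of libraries.

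Poly(A) RNA was sequenced from the tibialis anterior, a muscle of the lower leg, of C57Bl/6 mice in 14 libraries. Day 3 had 4 follistatin and 3 control libraries, day 7 had 2 follistatin and 2 control libraries, and day 14 had 2 follistatin libraries and 1 control library. Follistatin is a secreted protein that binds myostatin and activins, which restrain muscle growth. Control libraries carry the name MCS, which is not explained. The labels give neither the route of the treatment, nor what controls received, nor the age of the mice. Nothing in them says that replicates were separate animals, so p-values measure the spread between these libraries, which may be technical. Days 7 and 14 were analysed together, as the submitters grouped them, and are called the later days.

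RNA polymerase I copies the repeated rRNA genes into one long precursor with the help of the factors Ubtf, Rrn3 and the SL1 complex. snoRNPs then methylate and pseudouridylate that precursor, and separate sets of assembly factors fold and cut it into the small and large subunits. Myc, a transcription factor that binds CACGTG with its partner Max, is known to activate many genes of the pathway. Growing muscle is known to make more ribosomes, and the comparisons below ask whether mRNAs of this machinery differed with follistatin.

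The tissue label was checked against fibre markers. Tnni2, the fast troponin I gene, lay between 12148 and 20627 FPKM in the follistatin libraries and between 12683 and 14169 FPKM in the controls. Myh2, the myosin of type IIa fibres, lay between 57.4 and 118 FPKM in follistatin libraries and between 95.2 and 107 FPKM in controls at day 3. On the later days Myh2 lay between 13.5 and 59.0 FPKM in follistatin libraries and between 82.4 and 172 FPKM in controls, without overlap. The creatine kinase gene Ckm was listed at 0 in the later follistatin libraries, against 9169 to 10649 FPKM in controls. The authors' table gives no estimate for these 3 genes on the later days, so they were not tested there. Fst, the gene of follistatin, lay between 49.7 and 67.8 FPKM in follistatin libraries and between 1.01 and 1.42 FPKM in controls at day 3. On the later days Fst lay between 367 and 1421 FPKM in follistatin libraries and between 0.808 and 1.17 FPKM in controls. Summed FPKM per library ran from 364513 to 433552 in later follistatin libraries and from 485755 to 510584 in later controls, without overlap. Abundant genes listed at 0 lower these sums, and of 10 fibre markers 8 were so listed in all later follistatin libraries and 5 in all later controls. Their part in the difference was not tested. At day 3 the sums overlapped, at 486377 to 515812 and 508717 to 532859 in the same order. Absolute depth is unknown. Depth relative to the first day 3 control, from steps between low values, was 0.688 to 1.28 at day 3 and could not be settled on the later days. Control replicate 1 of day 7 stood apart, with 16158 genes above 0 against 19383 to 20283 in the other libraries of the later days. Levels were not compared between day 3 and the later days, since some genes differ between these sets in both arms. Nhp2l1, a snoRNP gene, averaged 51.7 FPKM in follistatin and 50.6 FPKM in control libraries of the later days, but 10.3 FPKM in follistatin and 8.75 FPKM in control libraries of day 3.

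The letters CACGTG were searched in promoters, from 250 bases before to 50 bases after the gene start, because Myc is a member. Promoters from RefSeq (GRCm38.p6) were matched for 29 of the 35 members, and those of Myc, Fbl, Npm1, Bop1, Rrs1 and Rrp12 were not. The motif reads the same on both strands. It occurred for 6 of the 29 members (20.7%), against 2187 of 27025 genes in the table (8.09%). The 6 were Rrn3 with 2 copies, and Nop2, Mybbp1a, Pes1, Utp20 and Wdr43 with 1 each. A match of letters is a description and says nothing of binding in these muscles. Of the 6, the promoters of 1 initiation factor, 1 assembly factor and 1 nucleolar protein are shown to give the setting of the motif, which stands in capitals.
Rrn3 promoter (chr16:13780449-13780748, plus strand): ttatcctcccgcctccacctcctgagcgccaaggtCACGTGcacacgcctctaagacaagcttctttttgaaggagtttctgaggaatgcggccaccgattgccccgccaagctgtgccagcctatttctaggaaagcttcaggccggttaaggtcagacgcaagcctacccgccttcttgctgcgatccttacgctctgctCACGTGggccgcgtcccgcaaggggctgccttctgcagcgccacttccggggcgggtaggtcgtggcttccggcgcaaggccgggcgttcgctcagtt
Nop2 promoter (chr6:125131633-125131932, plus strand): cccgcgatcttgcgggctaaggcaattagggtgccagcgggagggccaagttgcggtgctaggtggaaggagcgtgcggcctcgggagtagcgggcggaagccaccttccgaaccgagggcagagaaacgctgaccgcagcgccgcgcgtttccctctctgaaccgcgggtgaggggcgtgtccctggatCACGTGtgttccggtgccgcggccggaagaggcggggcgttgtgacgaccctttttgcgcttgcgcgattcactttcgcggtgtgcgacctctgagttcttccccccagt
Mybbp1a promoter (chr11:72441077-72441376, plus strand): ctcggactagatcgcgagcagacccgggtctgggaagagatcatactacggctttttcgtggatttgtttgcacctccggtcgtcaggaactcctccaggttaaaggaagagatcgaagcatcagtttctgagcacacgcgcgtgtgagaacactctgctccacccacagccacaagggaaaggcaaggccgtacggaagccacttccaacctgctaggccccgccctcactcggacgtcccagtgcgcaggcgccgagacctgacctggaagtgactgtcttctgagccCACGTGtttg

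At day 3, 0 of the 35 members passed the test. The fold changes were small, and most lay above 0. A gene was called where limma, fitted to log2(FPKM + 1) of all genes, gave a Benjamini-Hochberg adjusted p under 0.05, which held for 1.49% of the 11268 genes tested. Among the members the smallest adjusted p was 0.0723, for Nop16. Before adjustment 8 members were higher and 1 lower at p under 0.05, where 8.72% and 6.46% of all genes were. The authors' deposited table gave a q-value under 0.05 to 0 of the 34 members it tested at day 3, where 3.06% of its tested genes were higher and 3.19% lower. The median log2 fold change of the members was 0.09, with 28 of 35 above 0, against a median of 0.01 over all genes, of which 52.6% lay above 0. On the scale of FPKM + 1, which makes fold changes of low genes smaller, all 35 intervals (95%) of the fold change excluded a 2-fold difference. Their ends lay between 0.727-fold and 1.73-fold on that scale.

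Libraries of both treatments were fully separated for 8 members at day 3. Myc, Polr1a, Nop58, Nolc1, Ddx21, Nop16 and Rrs1 were higher in every follistatin library than in every control, 7 of 35 members where 8.31% of all genes were. Rrp1b was lower in every follistatin library, 1 of 35 where 6.8% of all genes were.

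Of the first step, Myc, the transcription factor (chr15:61985391-61990374), had 3.77, 4.71, 3.43 and 2.65 FPKM in the day 3 follistatin libraries, against 2.54, 2.20 and 2.41 FPKM in controls. The groups did not overlap, though the lowest follistatin library lay close to the highest control. On the log2 scale Myc stood at 0.44 (SE 0.15, adjusted p = 0.226 by limma). Polr1a, the largest subunit of RNA polymerase I (chr6:71909053-71984935), had 13.5, 12.4, 13.3 and 12.7 FPKM with follistatin, against 11, 11.1 and 10.8 FPKM in controls. The spread within each group was narrow, and the log2 fold change stood at 0.22 (SE 0.07, adjusted p = 0.184). Polr1b, the second largest subunit, had 7.25, 5.86, 6.85 and 6.28 FPKM with follistatin, against 5.65, 6.13 and 6.54 FPKM in controls. These overlapped (log2 fold change 0.09, SE 0.10).

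Factors of initiation pointed different ways at day 3 without passing. Ubtf, which binds the rRNA gene promoter, had 10.04, 11.6, 10.2 and 10.2 FPKM in follistatin libraries, against 12.4, 13.5 and 11.1 FPKM in controls. Of the 4 follistatin libraries, 3 lay under all controls, and the log2 fold change stood at -0.21 (SE 0.09, adjusted p = 0.325). Rrn3, which links the polymerase to the promoter and whose promoter is printed above, had 26.1, 20.99, 23.9 and 22.5 FPKM with follistatin, against 21.8, 22.5 and 19.8 FPKM in controls. The groups overlapped (log2 fold change 0.12, SE 0.09, adjusted p = 0.577).

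Taf1d, a subunit of SL1, had 8.26, 6.17, 7.86 and 10.3 FPKM in the day 3 follistatin libraries, against 6.29, 5.20 and 5.81 FPKM in controls. A single follistatin library lay within the control range, and the log2 fold change stood at 0.42 (SE 0.15, adjusted p = 0.230). The gene holds 10 small RNA genes and shares 235 exon bases with 4931406C07Rik on the opposite strand, so its FPKM may include reads of these. Polr1c, Polr1d and Polr1e, the smaller subunits, had log2 fold changes of 0.09, 0.07 and -0.11, with overlapping groups. For the 9 genes of this step the median was 0.09, with 7 above 0.

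Of the snoRNP proteins, the core protein Nop58 of the methylating particles (chr1:59684971-59719044) had 10.4, 12.7, 9.06 and 13.1 FPKM in the day 3 follistatin libraries, against 7.50, 8.53 and 8.64 FPKM in controls. All follistatin libraries were higher, and the log2 fold change stood at 0.41 (SE 0.13, adjusted p = 0.195). Nop58 holds 4 snoRNA genes, whose reads its FPKM may include. The same limit applies to Nop56, which holds 5 small RNA genes, Ncl (4), Gnl3 (3), Wdr43 (3), Ppan (2) and Dkc1 (1). Nolc1, a chaperone of snoRNPs, had 12.7, 13.1, 12.3 and 11.3 FPKM with follistatin, against 10.6, 10.3 and 9.03 FPKM in controls. It too was separated (log2 fold change 0.28, SE 0.09, adjusted p = 0.181). Partners of Nop58 in the same particle did not stand apart. Fbl, the methyltransferase, averaged 9.05 ± 1.21 FPKM with follistatin and 8.27 ± 0.95 FPKM in controls (SD, n = 4 and 3), and Nop56 averaged 13.2 ± 1.67 and 12.9 ± 0.937 FPKM in the same order. Among proteins of the pseudouridylating particles, log2 fold changes were 0.09 for the enzyme Dkc1, -0.07 for Gar1 and 0.21 for Nhp2. Rrp9, which belongs to the U3 particle, stood at -0.06.

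The nucleolar proteins that serve several steps had log2 fold changes between 0.04 and 0.18 at day 3. The helicase Ddx21 had 19.8, 16.9, 16.7 and 16.4 FPKM with follistatin, against 15.6, 14.0 and 16.2 FPKM in controls. A single follistatin library stood well above the others, and the rest lay just over the highest control (log2 fold change 0.18, SE 0.09, adjusted p = 0.395). The nucleolar protein Mybbp1a, which binds Myb, had 29.8, 37.4, 30.8 and 30.0 FPKM with follistatin, against 30.3, 27.2 and 28.5 FPKM in controls. The groups overlapped (log2 fold change 0.15, SE 0.09). Nucleolin, encoded by Ncl, averaged 32.7 ± 1.79 FPKM with follistatin and 31.4 ± 2.93 FPKM in controls. Nucleophosmin, encoded by Npm1, averaged 79.9 ± 8.67 FPKM with follistatin and 78.3 ± 14.8 FPKM in controls.

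Large subunit assembly held the member with the smallest p of day 3. Nop16 (chr13:54584185-54590090) had 11.2, 10.7, 11.7 and 12.9 FPKM in follistatin libraries, against 8.94, 8.73 and 8.19 FPKM in controls. Every follistatin library lay above every control, and the log2 fold change stood at 0.39 (SE 0.09, adjusted p = 0.0723). With the filter raised to a mean of 5 FPKM, which leaves 7013 genes, the adjusted p was 0.0456. Rrs1, needed for the 5S particle to join the large subunit in yeast, had 6.69, 5.72, 7.78 and 7.56 FPKM with follistatin, against 5.60, 5.58 and 5.59 FPKM in controls. The 3 controls were nearly equal while the follistatin libraries spread widely (log2 fold change 0.26, SE 0.11, adjusted p = 0.305).

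The other 8 genes of large subunit assembly had log2 fold changes between -0.14 and 0.28 at day 3. Bop1, Pes1 and Wdr12, which form one complex, stood at 0.13, -0.01 and 0.18. Pes1 shares 138 exon bases with 4930556J24Rik. The rRNA methyltransferase Nop2 stood at 0.09, the GTPase nucleostemin, encoded by Gnl3, at 0.28, and Ppan at 0.03. Noc2l stood at 0.07 and shares 598 exon bases, 20.9% of its own, with Samd11 on the opposite strand. Rrp1b had 1.90, 2.05, 2.15 and 1.83 FPKM with follistatin, against 2.18, 2.54 and 2.18 FPKM in controls, with an adjusted p = 0.602 by limma at a low level.

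In small subunit assembly, Rrp12 had 18.9, 17.3, 18.2 and 15.8 FPKM in the day 3 follistatin libraries, against 15.9, 12.6 and 15.8 FPKM in controls. Its lowest follistatin library lay just under 2 of the 3 controls (log2 fold change 0.24, SE 0.10, adjusted p = 0.325). Wdr43, part of the earliest complex on the precursor, had 15.8, 16.5, 13.9 and 13.3 FPKM with follistatin, against 12.5, 15.9 and 14.1 FPKM in controls. These overlapped throughout (log2 fold change 0.07), as did Nop14 and Utp20 (-0.04 and 0.06).

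**Figure D1:**
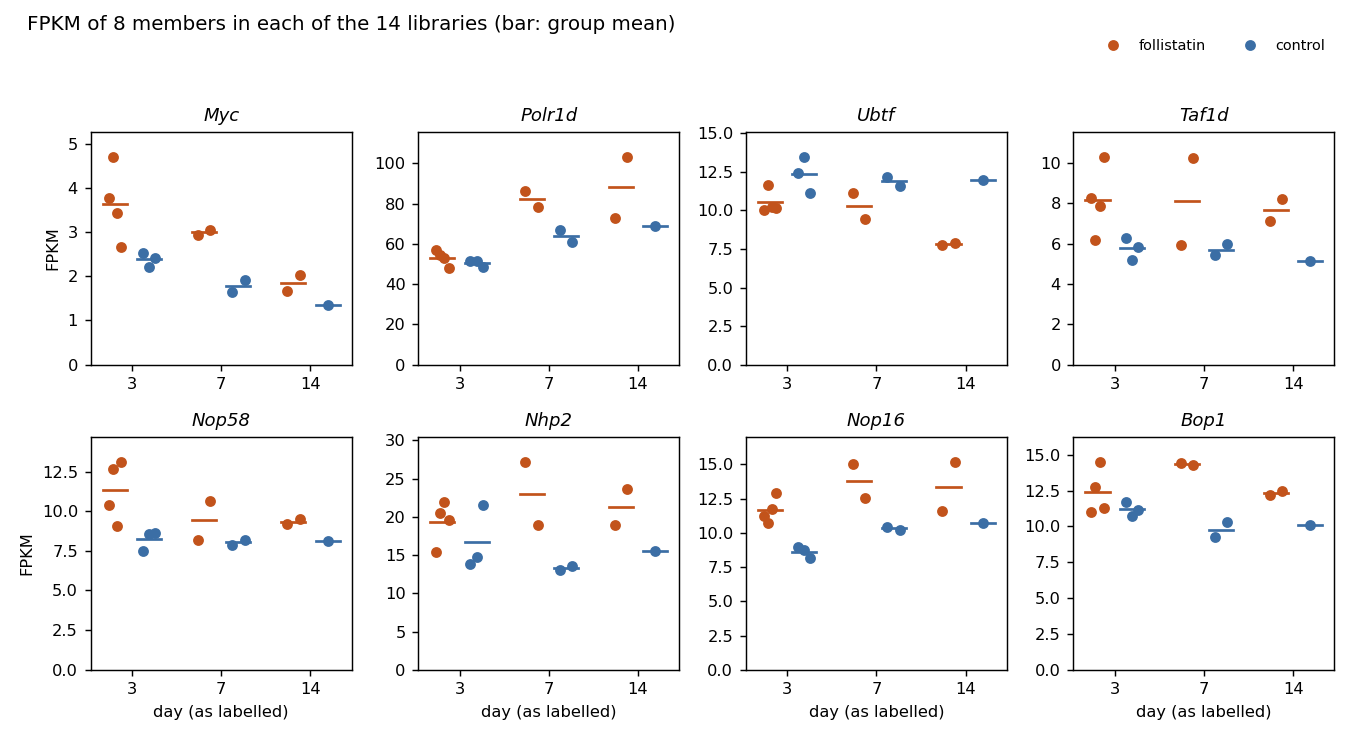
FPKM (vertical axes, from 0) of 8 members against labelled day, with 1 point per library and a bar at the group mean, follistatin in orange left of control in blue. Nop16 libraries with follistatin lie above the controls of the same day on all 3 days, and Ubtf libraries with follistatin lie at 7.74 and 7.89 FPKM (day 14) against 12.0 FPKM in the control.

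On the later days again 0 of the 35 members passed, where 5.5% of the 11047 genes tested did. The smallest adjusted p values by limma were 0.0572 for Nhp2 and 0.0597 for Bop1. Before adjustment 6 members were higher and 1 lower at p under 0.05, where 8.99% and 19.3% of all genes were. By the authors' deposited table, a total of 0 of 35 members had a q-value under 0.05, where 6.64% of its tested genes were higher and 11.2% lower, and the lowest was 0.0700 for Nhp2. The median log2 fold change was 0.14, with 23 of 35 above 0, against a median of -0.09 over all genes, of which 39.2% lay above 0. On the scale of FPKM + 1, all 35 intervals excluded a 2-fold difference, with ends between 0.625-fold and 1.93-fold. That scale makes fold changes of low genes smaller, so a 2-fold difference in FPKM itself is not excluded for every member.

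This set depended on scaling more than day 3. Over all genes 247 were called higher and 361 lower. Rescaling by the median ratio gave 389 higher and 239 lower, and quantile normalization gave 414 higher and 326 lower. The same steps moved the members' median to 0.22 and 0.25 and called Bop1 (adjusted p = 0.0305 and 0.0314), quantile normalization also Nhp2 (0.0498). On the FPKM as deposited, Polr1d, Polr1e, Nhp2, Nop16, Bop1 and Wdr12 were higher in every follistatin library, 6 of 35 members where 8.96% of all genes were. Ubtf was lower in every follistatin library, 1 of 35 where 21.5% of all genes were.

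Ubtf (chr11:102304560-102319742) had 11.2 and 9.46 FPKM (day 7) and 7.74 and 7.89 FPKM (day 14) with follistatin. Controls had 12.2 and 11.6 FPKM (day 7) and 12.0 FPKM (day 14). All follistatin libraries lay under all controls, those of day 14 farthest, and the log2 fold change stood at -0.37 (SE 0.13, adjusted p = 0.119 by limma). Follistatin replicate 1 of day 7 was the follistatin library nearest the controls. Without it the log2 fold change was -0.47 and passed (adjusted p = 0.0399), where 907 of 11057 genes did. The sign was the same under both rescalings and under every library left out.

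Myc had 2.92 and 3.06 FPKM (day 7) and 1.67 and 2.02 FPKM (day 14) with follistatin, against 1.64 and 1.90 FPKM (day 7) and 1.35 FPKM (day 14) in controls. Within each day the follistatin libraries lay above the controls, but pooled over days the groups overlapped (log2 fold change 0.36, SE 0.18, adjusted p = 0.222). Taf1d had 5.95 and 10.2 FPKM (day 7) and 7.13 and 8.23 FPKM (day 14) with follistatin, against 5.41, 5.97 and 5.16 FPKM in the 3 controls. A single library of day 7 lay within the control range (log2 fold change 0.43, SE 0.16, adjusted p = 0.135).

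Among subunits of the polymerase, Polr1d, which RNA polymerase III also uses, had 86.1 and 78.1 FPKM (day 7) and 72.8 and 103 FPKM (day 14) with follistatin, against 67.1, 61.2 and 68.8 FPKM in controls. All follistatin libraries were higher (log2 fold change 0.36, SE 0.14, adjusted p = 0.141). Polr1e was also separated but low, at 1.33 ± 0.0903 FPKM with follistatin and 1.09 ± 0.0950 FPKM in controls (SD, n = 4 and 3). Polr1a had 11.8, 13.1, 12.1 and 7.85 FPKM with follistatin, against 11.2, 10.4 and 11.4 FPKM in controls. Its separation of day 3 was not seen here, and 1 library of day 14 lay far below the other 6.

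Polr1b had 6.51, 6.94, 6.73 and 5.28 FPKM with follistatin on the later days, against 6.14, 5.52 and 5.30 FPKM in controls. Rrn3 had 18.2, 23.4, 22.8 and 16.8 FPKM with follistatin, against 21.5, 21.1 and 20.1 FPKM in controls. The follistatin libraries of Rrn3 lay on either side of the controls, and its log2 fold change was -0.05 as deposited and 0.05 after median ratio rescaling.

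Nhp2, a core protein of the pseudouridylating particles and of telomerase (chr11:51619735-51623714), had the largest log2 fold change of the 35 members on the later days. It had 27.2 and 18.9 FPKM (day 7) and 18.9 and 23.6 FPKM (day 14) with follistatin, against 13.1, 13.6 and 15.6 FPKM in controls. All follistatin libraries were higher (log2 fold change 0.61, SE 0.15, adjusted p = 0.0572). Small RNA genes taken out of the fit gave an adjusted p = 0.0377, and robust variance estimates gave 0.0425. Nhp2 shares 44 exon bases with Rmnd5b on the opposite strand.

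Dkc1, the pseudouridine synthase of that same particle, ran the other way. It had 8.50 and 11.3 FPKM (day 7) and 9.83 and 8.93 FPKM (day 14) with follistatin, against 11.5, 11.6 and 11.2 FPKM in controls. Of the follistatin libraries 3 lay under the controls and 1 just above the lowest (log2 fold change -0.23, SE 0.11, adjusted p = 0.203). Gar1 of this particle stood at 0.15. Of the methylating particle, Fbl stood at 0.28, Nop58 at 0.19 and Nop56 at -0.04, and Nolc1 stood at -0.05, with overlapping groups for each.

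The 4 nucleolar proteins of several steps had log2 fold changes between -0.05 and 0.09 on the later days. Ncl had 25.7, 28.6, 26.6 and 27.7 FPKM with follistatin, against 27.2, 24.5 and 26.1 FPKM in controls. Mybbp1a had 32.5, 33.4, 27.3 and 19.99 FPKM with follistatin, against 26.8, 26.2 and 24.9 FPKM in controls. The day 7 libraries of Mybbp1a were above all controls and 1 of day 14 was below them.

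In large subunit assembly Bop1 (chr15:76452989-76477277) had 14.4 and 14.3 FPKM (day 7) and 12.2 and 12.5 FPKM (day 14) with follistatin, against 9.25, 10.3 and 10.1 FPKM in controls. The groups were well apart, and the log2 fold change stood at 0.40 (SE 0.10, adjusted p = 0.0597). Its partners Wdr12 and Pes1 stood at 0.25 and 0.08, and only Wdr12 of these was separated. Nop16 had 15.0 and 12.5 FPKM (day 7) and 11.6 and 15.2 FPKM (day 14) with follistatin, against 10.5, 10.2 and 10.7 FPKM in controls. As at day 3 every follistatin library was higher (log2 fold change 0.34, SE 0.12, adjusted p = 0.114). The other 6 genes of this step lay between -0.17 and 0.25.

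Small subunit assembly had a median log2 fold change of -0.11 on the later days, close to the median of -0.09 over all genes tested. No other step had a median below 0. Utp20, a large scaffold of the early particle, had 1.71, 2.14, 2.72 and 1.98 FPKM with follistatin, against 2.92, 2.33 and 2.67 FPKM in controls. Rrp12 had 17.3, 20.2, 20.4 and 14.8 FPKM with follistatin, against 15.5, 14.5 and 15.3 FPKM in controls. The 2 genes pointed opposite ways, and neither was separated (log2 fold changes -0.22 and 0.24, adjusted p = 0.316 and 0.256 by limma).

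**Figure D2:**
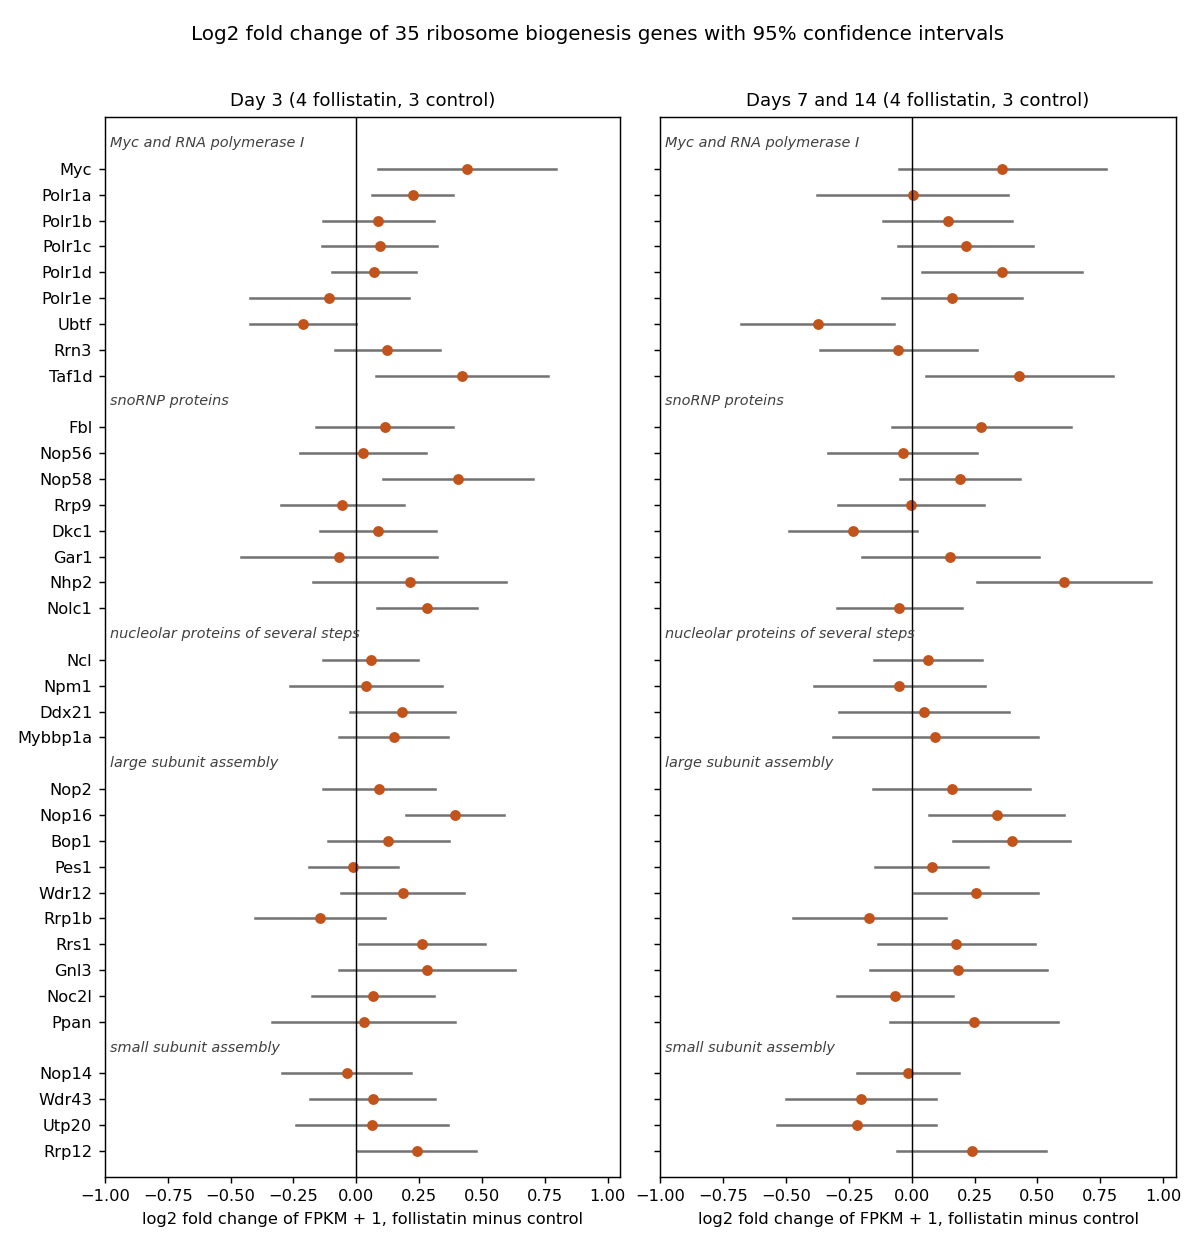
Log2 fold change of FPKM + 1, follistatin minus control (horizontal axis), of the 35 members by step, for day 3 (left) and the later days (right); points are estimates and lines 95% confidence intervals. At day 3, 8 intervals lie wholly above 0 and 1 wholly below, and on the later days 6 lie above and 1 below.

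Days 7 and 14 were also set apart in 1 fit of all 14 libraries, which shares the spread and assumes that the lone control of day 14 varies like the other groups. These contrasts use the same libraries as the later days above. At day 7, Bop1 rose (log2 fold change 0.51, SE 0.12, adjusted p = 0.0482 by limma), 1 of 35 members where 3.69% of all genes were called. At day 14, Ubtf fell (log2 fold change -0.56, SE 0.14, adjusted p = 0.0455), 1 of 35 where 5.62% of all genes were called. Both calls are near the threshold. The call of Bop1 ended without any 1 of the 4 day 7 libraries (adjusted p between 0.0681 and 0.338) and without day 3 control 1, 2 or 3 or day 3 follistatin 1, 2 or 4 (0.0529 to 0.0742). That of Ubtf ended without either follistatin library of day 14, either control of day 7, day 3 control 1 or 2, or day 3 follistatin 1, 3 or 4, and after median ratio or quantile rescaling (0.108 and 0.0927). Both ended with no filter (0.0696 for Bop1 and 0.0616 for Ubtf), with robust variance (0.0591 and 0.0643) and without small RNA genes (0.0531 and 0.0574). Leaving out either follistatin library of day 14 leaves 1 library per treatment at that day, so effect sizes alone are given. Without replicate 1 the log2 fold change was -0.49 for Polr1a and 0.58 for Polr1d. Without replicate 2 it was 0.08 for each.

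The follistatin effect of the later days was set against that of day 3 in an interaction test over the 14 libraries. Of the 35 members 0 passed, where 0.0884% of all genes did, and 0 were higher and 2 lower before adjustment, where 2.99% and 11.9% of all genes were. The 2 were Nolc1 (difference of log2 fold changes -0.33, SE 0.13) and Dkc1 (-0.32, SE 0.15), with adjusted p = 0.285 and 0.331 by limma. In both sets 20 members lay above 0 and 4 below, while 8 lay above 0 at day 3 alone and 3 on the later days alone. The members' median difference was -0.02, with 16 of 35 above 0, against a median of -0.11 over all genes, of which 35.8% lay above 0. After median ratio rescaling the members' median was 0.07, with 25 of 35 above 0, against 0.00446 over all genes, and after quantile normalization it was 0.06 against -0.02.

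**Figure D3:**
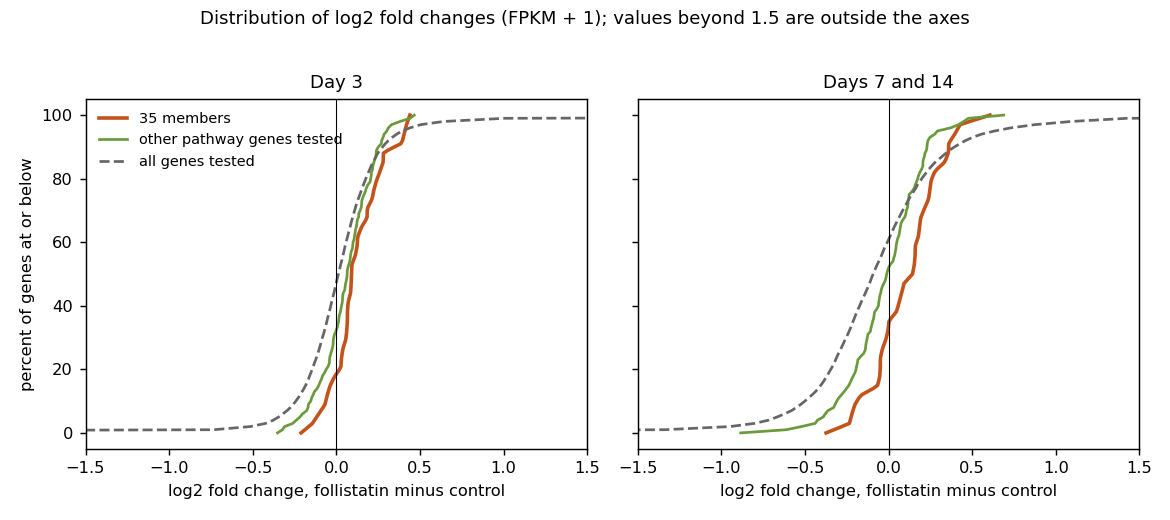
Percent of genes (vertical axis) at or below a log2 fold change, follistatin minus control (horizontal axis), for the 35 members, the other pathway genes and all genes tested. The members' curve lies to the right of that of all genes over its middle part, with medians of 0.09 against 0.01 at day 3 and 0.14 against -0.09 on the later days.

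Another 160 genes of the pathway were counted beside the members, of which 156 were tested at day 3 and 157 on the later days. At day 3, 0 of them were called by limma, with a median log2 fold change of 0.06. Before adjustment 16 of 156 were higher and 4 lower at p under 0.05, where 8.72% and 6.46% of all genes were. Rpf2, a large subunit factor that brings in the 5S particle, had the smallest p (log2 fold change 0.42, SE 0.10, adjusted p = 0.0943). Utp18 of the small subunit processome followed at 0.47 (adjusted p = 0.102). On the later days 2 rose, 2 fell and 153 did not pass, where 5.5% of all genes were called in either direction, with a median of -0.01. Before adjustment 9 of 157 were higher and 17 lower at p under 0.05 there, where 8.99% and 19.3% of all genes were. On the later days 76 of the 157 lay above 0 (48.4%), where 39.2% of all genes did.

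The 2 that rose serve the small subunit. Utp11l had 29.5, 34.9, 33.2 and 43.1 FPKM with follistatin on the later days, against 21.3, 19.3 and 23.4 FPKM in controls. The groups were far apart (log2 fold change 0.69, SE 0.14, adjusted p = 0.0379). Bysl had 11.8, 9.73, 9.74 and 9.55 FPKM with follistatin, against 7.22, 7.45 and 6.89 FPKM in controls (log2 fold change 0.45, SE 0.10, adjusted p = 0.0465). Of the 44 listed genes of small subunit assembly beside the 4 members, these 2 rose and 42 did not pass, with a median of 0.01. Over all 11047 genes tested, 247 were called higher, with a median of -0.09.

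Mxi1, which competes with Myc for Max, fell on the later days. It had 6.23 and 6.09 FPKM (day 7) and 6.66 and 6.42 FPKM (day 14) with follistatin, against 13.0 and 10.9 FPKM (day 7) and 13.9 FPKM (day 14) in controls. The follistatin libraries were nearly equal to each other and all lay far below the controls (log2 fold change -0.88, SE 0.10, adjusted p = 0.00767). At day 3 it averaged 10.2 ± 1.07 FPKM with follistatin and 12.2 ± 1.65 FPKM in controls and did not pass (adjusted p = 0.359). Of the 9 partners and antagonists of Myc tested on the later days, 1 lay above 0, where 39.2% of all genes did. It was Mxd3, at 0.47 without passing (adjusted p = 0.124).

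Maf1, a repressor of RNA polymerase III, also fell. It had 42.5 and 32.3 FPKM (day 7) and 26.3 and 31.8 FPKM (day 14) with follistatin, against 55.7, 53.8 and 50.6 FPKM in controls (log2 fold change -0.69, SE 0.16, adjusted p = 0.0480). At day 3 its libraries were separated the same way, at 48.4 ± 3.62 FPKM with follistatin and 60.4 ± 4.98 FPKM in controls, without passing (adjusted p = 0.134). Of the 22 genes of RNA polymerase III and the 5S rRNA, Maf1 fell and 21 did not pass. Over all 11047 genes tested on the later days, 361 were called lower.

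These 4 calls depended on single libraries and settings. Without control replicate 1 of day 7 none passed (adjusted p = 0.0655 for Mxi1 and 0.176 to 0.204 for the others). Mxi1 passed without any other library. Maf1, Utp11l and Bysl did not pass without control 2 of day 7, the control of day 14, follistatin 2 of day 7 or follistatin 1 of day 14 (0.063 to 0.170). Without follistatin 2 of day 14 Maf1 and Bysl did not pass (0.0819 and 0.0564). With no filter on low values Maf1, Utp11l and Bysl did not pass (0.0614 to 0.0877), Maf1 did not after median ratio rescaling (0.0760) or with day as a covariate (0.0519), and Bysl did not with robust variance (0.0510). With the day 7 libraries alone none of the 4 passed (0.157 to 0.289).

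**Figure D4:**
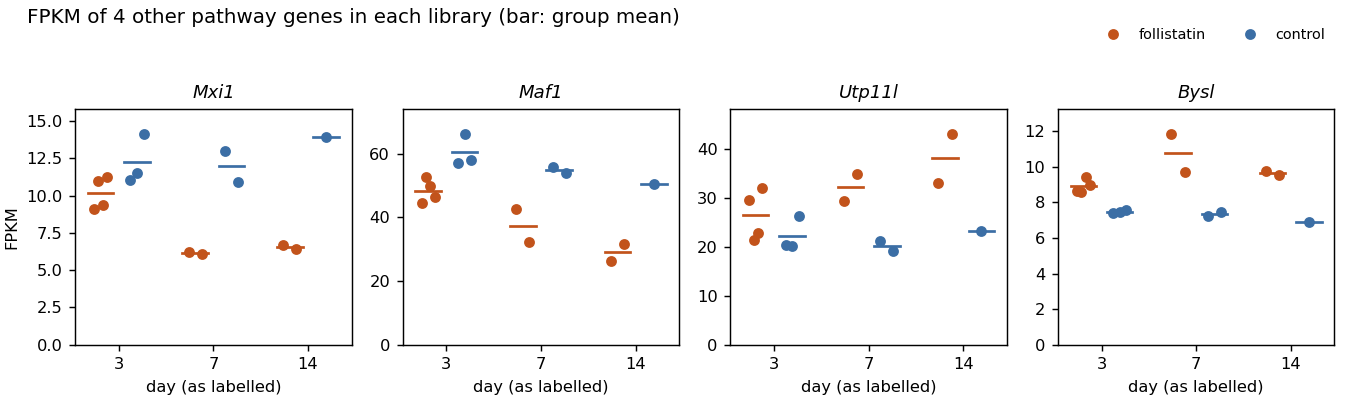
FPKM (vertical axes, from 0) of the 4 other pathway genes called on the later days against labelled day, 1 point per library with a bar at the group mean, follistatin in orange left of control in blue. The later Mxi1 libraries with follistatin lie between 6.09 and 6.66 FPKM, all below the controls at 10.9 FPKM or more.

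Markers of other cells differed beside these values. In whole muscle, fewer cells of a type and less RNA per cell cannot be told apart. The summed FPKM of 10 endothelial markers was 143 to 162 in follistatin libraries and 173 to 186 in controls at day 3, and 91.9 to 153 and 171 to 226 on the later days in the same order. The log2 fold change was above 0 for 0 of the 10 at day 3, where 52.6% of all genes were. On the later days it was above 0 for 1 of the 10, where 39.2% of all genes were. Of the 10, 1 was called lower there, where 5.5% of all genes were called in either direction. The 13 macrophage markers summed to 78.8 to 262 FPKM with follistatin and 49.8 to 133 FPKM in controls on the later days. Of the 12 tested, 11 had log2 fold changes above 0, where 39.2% of all genes did. In the fit by day, the macrophage genes had a median log2 fold change of 0.04 at day 7, with 0 of 12 at an unadjusted p under 0.05, and of 1.31 at day 14, with 6 of 12 higher at that p, where 7.39% of all genes were, and 1 control library. On the later days the 12 proliferation genes summed to 30.3 to 47.2 FPKM with follistatin and 27.1 to 30.8 FPKM in controls, with overlap. Only 5 of the 12 passed the filter and were tested. All 5 had log2 fold changes above 0, where 39.2% of all genes did. The 8 neutrophil markers summed to 6.16 to 24.1 FPKM with follistatin and 2.95 to 5.37 FPKM in controls at day 3, where 4 of the 8 were at 0 in every control. On the later days they summed to 4.08 to 12.1 FPKM with follistatin and 2.85 to 3.97 FPKM in controls, without overlap. Only 3 of the 8 passed the filter there. Sums of satellite cell and fibroblast markers overlapped in both sets. The part of these cells in the values above was not tested. Of 10 fibre markers, 8 were listed at 0 in all later follistatin libraries and 5 in all later controls, among genes for which the authors' table marks no estimate.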

How the data were processed

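The authors aligned reads with TopHat to mm10 and computed FPKM with Cuffdiff, per the submitters' processing notes; versions, annotation and strand setting are not given in the sources used here. One deposited file per library gives FPKM for each gene. Tables deposited by the authors hold Cuffdiff's log2 fold changes, test scores, p-values and q-values. Of 24386 genes listed, 27 with symbols turned into dates were left out. Genes the authors marked HIDATA (4 at day 3, 31 later) were left out of tests.

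Each set was fitted with limma 3.58.1 in R 4.3.3 (eBayes with trend, two-sided) on log2(FPKM + 1), keeping genes that averaged 1 FPKM or more in the set, with 5 residual degrees of freedom per set. Adding 1 makes fold changes of low genes smaller. Adjusted p-values are Benjamini-Hochberg over all genes tested. The steps were tested on simulated data. Depth is known only relative to 1 library, from the 79.3% to 83.5% of low values at whole ratios at day 3 and 52.9% to 62.9% later. Values per library are given for Myc, Polr1b, Rrn3, Ubtf, called members and the 2 members of each step with the smallest p in each set; of the other lists the gene with the smallest p may be named. Bysl, Mxd3 and members given for a separation or a shared complex were named after their values were seen. The members and lists were chosen with earlier results of these data known. Positions are from GENCODE M21 (GRCm38). Alternatives were another pseudocount, filter or scaling, robust variance, small RNA or HIDATA genes left out or kept, a replicate block, a limit of 1.5-fold, all 14 libraries, day as a covariate, day 7 alone, and each library left out; those on the 160 other genes were added after seeing the data.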

Additional observations from a re-analysis of the deposited data

Results flagged for a closer look

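Within the 4 follistatin libraries of day 3, the FPKM of 5 members had 1 library far from the other 3, by the gap to its nearest neighbour over the range (above 0.829). In all, 35 such groups were looked at, and chance gives about 1 such group in 20. Ubtf stood high in replicate 2 at 11.6 FPKM, and Mybbp1a stood high in the same library at 37.4 FPKM. Ddx21 stood high in replicate 1 at 19.8 FPKM. Ncl stood low in replicate 3 at 30.0 FPKM, and Nop2 stood low in replicate 4 at 8.17 FPKM. None of the 5 passed the day 3 test by limma with all libraries or with any 1 of the 7 left out, where 0 members passed; at an unadjusted p under 0.05, Ubtf was lower.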

How the results depend on the processing

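The count of members called was 0 at day 3 with all libraries, with each left out (0 to 0) and under every alternative but 1, a mean of at least 5 FPKM (1, Nop16). On the later days it was 2 with that filter (Nhp2, Bop1), 1 with median ratio rescaling (Bop1) and 2 with quantile normalization (Nhp2, Bop1). It was 1 with robust variance and 1 without small RNA genes (Nhp2 in both), and 0 to 1 with a library left out. With all 14 libraries in 1 fit it was 5 (Polr1d, Nhp2, Nop16, Bop1, and Ubtf lower), where 2071 of 11306 genes were called. Over all genes the filter called 236 of 7013 at day 3 and 620 of 6606 later. Median ratio rescaling, quantile normalization and robust variance called 628, 740 and 817 of 11047 genes later, and leaving out small RNA genes called 963 of 10743. A limit of 1.5-fold was set on top of the call, so with 0 members called its count had to be 0 in both sets. At day 7 it was 0 with no filter, robust variance or no small RNA genes, and 0 to 1 with a library left out. At day 14 it was 0 with no filter, either rescaling, robust variance or no small RNA genes, and 0 to 2 with a library left out; leaving out its only control could not be fitted. The interaction gave 0 under every alternative. The members' median stayed above 0 throughout, at 0.07 to 0.14 at day 3 and 0.06 to 0.25 later. Of the other pathway genes, 0 were called at day 3 under every alternative. Later 1 was called with no filter, where 284 of 22117 genes were, and 7 with quantile normalization, where 740 of 11047 were. Counts were 14 with all 14 libraries (2071 of 11306 genes), 0 with day 7 alone and 0 to 6 with a library left out. In none of these was the cause tested.

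Whether replicate numbers pair the libraries is not known. Correlations of deviations between libraries of the same number were -0.0366, -0.0484 and -0.0583 at day 3, and 0.015 at day 7. With so few libraries per arm they cannot decide it, and at day 7 every combination of numbers gave 0.015 or -0.015. A block by day and replicate number called 0 members in each set, 1 other pathway gene later, and of all genes 19 at day 3 (13 higher, 6 lower) and 164 later (83 higher, 81 lower).

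Small fold changes turned sign. At day 3, quantile normalization gave -0.0066 for Nop56. The replicate block gave 0.042 for Gar1, 0.0068 for Pes1 and 0.023 for Nop14. With a library left out, day 3 ranges crossed 0 for Nop56 (-0.032 to 0.11), Npm1 (-0.036 to 0.19), Ppan (-0.087 to 0.13), Wdr43 (-0.014 to 0.15), Rrp9 (-0.10 to 0.022), Noc2l (-0.029 to 0.17), Nop14 (-0.13 to 0.043), Utp20 (-0.0012 to 0.15), Pes1 (-0.058 to 0.013) and Gar1 (-0.20 to 0.042). Later, median ratio rescaling gave 0.053 for Rrn3, 0.067 for Nop56, 0.095 for Rrp9, 0.051 for Nolc1, 0.060 for Npm1, 0.037 for Noc2l and 0.084 for Nop14. Later, quantile normalization gave 0.027 for Nop56, 0.094 for Rrp9, 0.035 for Nolc1 and 0.065 for Nop14. Later, the replicate block gave 0.028 for Rrn3, 0.051 for Nop56, 0.047 for Rrp9, 0.021 for Nolc1 and 0.0035 for Nop14. Later, day as a covariate gave 0.022 for Rrp9. Later, day 7 alone gave 0.14 for Nop56, 0.19 for Rrp9, 0.056 for Nolc1 and 0.035 for Noc2l. Later, with a library left out, ranges crossed 0 for Npm1 (-0.14 to 0.032), Nop14 (-0.042 to 0.025), Polr1a (-0.075 to 0.15), Rrp9 (-0.092 to 0.054), Ddx21 (-0.030 to 0.13), Rrn3 (-0.12 to 0.028), Nop56 (-0.10 to 0.051) and Nolc1 (-0.10 to 0.021).

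Counts over all genes moved more than 1.5 times from 168 at day 3 and 608 later with small RNA genes left out (266 and 963), and later with no filter (284), all 14 libraries (2071) and day 7 alone (30). With a library left out they were 39 to 165 at day 3, 43 to 907 later, 111 to 981 for day 7 and 311 to 1574 for day 14 (417 and 635 with all libraries). For the interaction 10 genes were called, 2 with no filter, 6 with median ratio rescaling, 24 with HIDATA genes kept and 2 to 32 with a library left out.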

Other observations

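One row of the files, Rn45s, carries the symbol of the 45S precursor of rRNA, the product of RNA polymerase I, and was chosen after its values were seen. The libraries were selected for poly(A) RNA, which the precursor mostly lacks, and its genes are repeated, so the row is no measure of rRNA synthesis. At day 3 it had 59.5, 60.8, 74.3 and 64.1 FPKM in follistatin libraries, against 67.0, 114 and 88.6 FPKM in controls. On the later days it had 128 and 103 FPKM (day 7) and 72.6 and 72.6 FPKM (day 14) with follistatin, against 117 and 213 FPKM (day 7) and 129 FPKM (day 14) in controls. The follistatin libraries overlapped the controls in both sets, and by limma neither difference passed (log2 fold change -0.44, adjusted p = 0.255, and -0.68, adjusted p = 0.149). The authors' deposited table called it lower in both sets, with q = 0.00191 at day 3 and 0.0044 on the later days.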
